A study of Mus musculus with 12 samples.

Results

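The 7 genes called the receptor chains here encode the receptors through which GM-CSF, IL-3, G-CSF, M-CSF and IL-6 act on myeloid cells. They were measured in granulocyte-monocyte progenitors (GMPs), from which neutrophils and monocytes develop in the marrow. The cells were sorted by fluorescence from C57BL/6 mice of 4 genotypes. The 7 receptor chains, out of 14179 genes with a value, were taken by their annotated symbols and cover 71 probe sets of an Affymetrix Mouse Gene 1.0 ST array: 9 for Csf2rb, 7 for Csf2rb2, 3 for Csf2ra, 8 for Il3ra, 9 for Il6ra, 13 for Csf3r and 22 for Csf1r. All 7 had a value on every array, and none was under the 5th percentile of all probe sets on its array (4.39 to 5.65 on the log2 scale). The set was chosen by the measured differences of knock-out against wild type, in which Csf2rb had one of the smallest p-values in earlier results, so for these genes that comparison is a description with no test.

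The groups, with 3 arrays each, were Gfi1 knock-out mice (KO), mice with a variant form of human GFI1 knocked in (SNP), mice with the common form of human GFI1 knocked in (wtKI) and wild-type mice (WT). GFI1 binds DNA through zinc fingers, represses transcription and is required for neutrophil development. The stated aim was to find genes that the variant alters, in relation to acute myeloid leukaemia. The sources used here do not say whether the knock-ins were on 1 or both copies of the gene, or whether the arrays of a group were separate mice. The p-values therefore measure the spread between these arrays, part of which may be technical. In RNA of a bulk sample, fewer cells of a type and less RNA per cell cannot be told apart.

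The arrays were not equal. Across probe sets, the median correlation with the other arrays was 0.701 for KO 1 and 0.633 for SNP 1, against 0.836 to 0.886 for the other 10 arrays. Mature neutrophil, B-lineage and erythroid marker genes averaged 4.01, 3.55 and 3.18 log2 units above the WT mean on SNP 1. For this reason values without KO 1 and SNP 1 are given below for the main values that they move. Mpo, which encodes the granule enzyme myeloperoxidase of GMPs, lay between 10.70 and 11.58 on all 12 arrays. The 8 measured of 9 listed GMP markers averaged -1.31 from the WT mean on SNP 1 and -0.40 on KO 1, against -0.25 to 0.09 on the other 10 arrays. Cd34 and Kit, surface markers of progenitors, were at 8.55 and 6.29 on SNP 1, against 10.45 to 10.78 and 8.01 to 8.97 on the other 11 arrays. Y-linked genes averaged 2.96 to 3.17 on WT 3, wtKI 2 and wtKI 3 and 7.51 to 8.20 on the other arrays. Both sexes therefore occurred in wtKI and WT, and every KO and SNP array held RNA of male cells. The gene value of Gfi1 itself was 6.34, 6.78 and 6.57 in KO, against 5.75, 5.70 and 6.26 in WT, and so does not check the KO label.

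Receptors for GM-CSF and IL-3 consist of a cytokine-specific alpha chain (Csf2ra or Il3ra) that binds the ligand and a beta chain that carries the signal. In mice the beta chain comes in a shared form (Csf2rb), which also serves the IL-5 receptor, and a form that serves the IL-3 receptor alone (Csf2rb2). JAK2 bound to the beta chain activates STAT5, and the signal promotes survival and growth of myeloid progenitors. The G-CSF receptor Csf3r works as a pair of identical chains and is needed for normal neutrophil production, Csf1r is the receptor tyrosine kinase of the monocyte and macrophage lineage, and Il6ra binds IL-6 before it joins the signalling chain gp130 (Il6st).

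Promoters are shown for Csf2rb2 and Il6ra, which had the largest KO minus WT difference in each direction among the 7. Each is the stretch from 250 bases before to 50 after the start of transcription, written 5′ to 3′ on the gene's strand, from RefSeq (GRCm38.p6). Capitals mark AATC, the core of the motif that GFI1 recognises, or GATT where it lies on the opposite strand. Csf2rb2 is on the minus strand of chr15:78305672-78305971 and Il6ra on the minus strand of chr3:89913147-89913446.
Csf2rb2: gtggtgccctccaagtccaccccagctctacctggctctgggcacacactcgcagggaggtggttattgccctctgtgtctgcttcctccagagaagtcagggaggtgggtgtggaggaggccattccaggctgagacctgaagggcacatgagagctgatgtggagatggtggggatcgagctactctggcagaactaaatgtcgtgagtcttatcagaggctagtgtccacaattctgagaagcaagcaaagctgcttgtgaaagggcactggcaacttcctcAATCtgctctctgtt
Il6ra: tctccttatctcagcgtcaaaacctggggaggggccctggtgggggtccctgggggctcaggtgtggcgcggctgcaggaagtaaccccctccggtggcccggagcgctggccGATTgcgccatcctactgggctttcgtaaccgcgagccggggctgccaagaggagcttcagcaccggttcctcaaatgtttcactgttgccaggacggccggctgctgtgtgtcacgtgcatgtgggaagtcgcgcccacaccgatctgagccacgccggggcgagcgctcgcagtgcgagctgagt

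Entries for 5 of the 7 receptor chains were searched, on both strands, for AATC and for the longer AAATC, which contains it. Csf2rb had no entry, and Csf1r, on chromosome 18, was left out of the search. AATC occurred once in the Csf2rb2 promoter, at position 36 from the start, and once in the Il6ra promoter, at position -137. Csf3r also had 1 match and Il3ra had 2, while the Csf2ra window held none. Of these 5 promoters, only that of Csf3r held AAATC. AATC was present in 73.1% of the 32544 promoters of this length and AAATC in 35.8%, so a match is common. GGAA, the core bound by ETS factors such as PU.1, was found 3 times each in Csf2rb2, Il3ra and Il6ra, 5 times in Csf2ra and 7 times in Csf3r, and in 96% of all promoters.

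The beta chains gave the widest separation between genotypes. Csf2rb was at 8.42, 8.37 and 8.23 (log2 signal) in KO, 7.10, 6.89 and 6.81 in SNP, 7.32, 7.50 and 7.73 in wtKI and 7.34, 7.02 and 7.20 in WT. All 3 KO arrays were above all others. Group means ran in the order KO (8.34 ± 0.10), wtKI (7.51 ± 0.21), WT (7.19 ± 0.16) and SNP (6.93 ± 0.15, SD, n = 3 each), and of the neighbours in that order only KO and wtKI did not overlap. The KO minus WT difference was 1.15 ± 0.17 (SE of the limma fit over all genes, here and below), a fold of 2.23. Leaving out KO 1 and SNP 1 gave 1.12 ± 0.17.

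Csf2rb2 was at 8.20, 7.45 and 7.56 in KO, 6.32, 6.31 and 6.16 in SNP, 6.74, 6.71 and 7.50 in wtKI and 6.36, 6.24 and 6.37 in WT. KO was above WT and SNP on every array, while wtKI 3, at 7.50, lay above KO 2. The means followed the same order as those of Csf2rb, at 7.74 ± 0.40 for KO, 6.98 ± 0.45 for wtKI, 6.32 ± 0.07 for WT and 6.26 ± 0.09 for SNP (SD, n = 3 each). Of the neighbours, wtKI and WT did not overlap. The KO minus WT difference was 1.41 ± 0.25, a fold of 2.67, and 1.19 ± 0.23 without KO 1 and SNP 1.

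Csf2rb and Csf2rb2 are closely related and lie next to each other on chromosome 15, with no other measured gene between them. Binding of one gene's RNA to the other's probes was not tested, so each value is uncertain to that extent. Across the 12 arrays their values correlated at r = 0.94, and at 0.92 over the 10 arrays without KO 1 and SNP 1, as a description over arrays of shared genotype. The 3 measured genes on either side, looked at after the values of the receptor chains were known, gave KO minus WT differences of -0.11 ± 0.21 for Eif3d, -0.72 ± 0.71 for Ift27 and -0.62 ± 0.41 for Ncf4 on one side. On the other side they were 0.11 ± 0.23 for Tex33, 0.09 ± 0.22 for Tst and -0.75 ± 0.32 for Mpst. None was higher in KO without overlap, while Ncf4 and Mpst were lower without overlap, against 11.8% of all genes in either direction. The limma adjusted p was 1 for each.

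**Figure D1:**
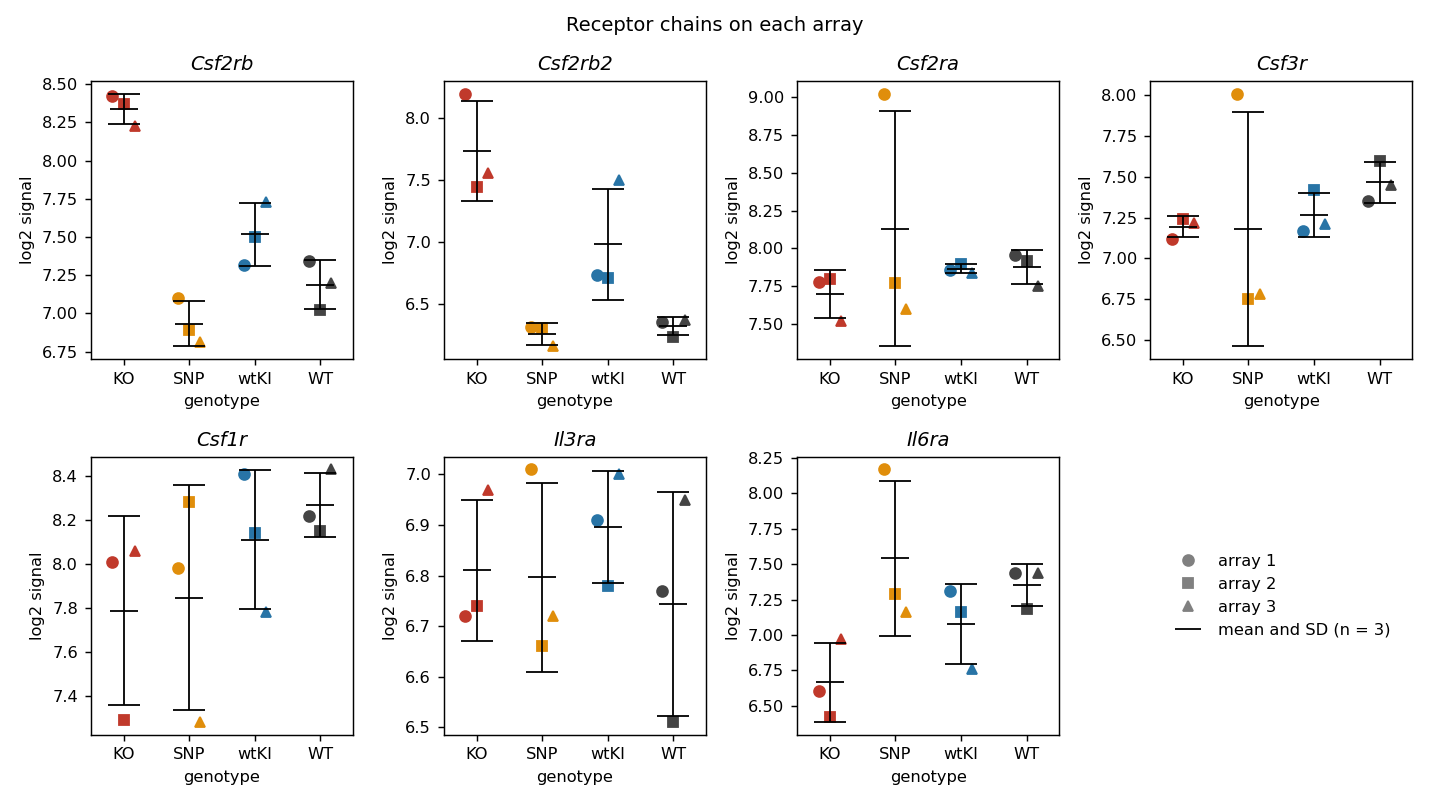
Log2 signal of the 7 receptor chains (y axis, a scale of its own for each gene) by genotype, with a point for each of the 12 arrays and a bar at each mean. Csf2rb on the 3 KO arrays (8.23 to 8.42) is above all other arrays, and SNP 1 is the highest array for Csf2ra (9.02), Csf3r (8.01) and Il6ra (8.17).

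Single probe sets read separate stretches of a gene. All 9 of Csf2rb were higher in KO by means that ranged from 0.79 to 1.73 with a median of 1.15. Of the 9 differences in KO minus WT, 7 were without overlap, beside 11.8% of all genes. The widest was 10425072, at 9.42, 8.97 and 8.84 in KO, against 7.70, 6.80 and 7.56 in WT. The same probe set was at 7.02, 7.25 and 6.23 in SNP, against 7.71, 7.88 and 8.09 in wtKI, and was the only 1 of the 9 whose SNP and wtKI values did not overlap. The remaining KO minus WT differences, in order along the gene's probe set numbers, were 0.97 for 10425067, 1.17 for 10425068, 1.10 for 10425069, 0.96 for 10425070, 1.15 for 10425071, 1.41 for 10425073, 1.34 for 10425074 and 0.79 for 10425075. Groups overlapped for 10425067 and 10425075. Probe set 10425067 was under the 5th percentile of the array on 5 arrays, so its size is not exact.

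For Csf2rb2 all 7 probe sets were higher in KO than in WT, by 0.43 to 2.39 with a median of 1.5. Of the 7, 5 did not overlap, beside 11.8% of all genes. The differences were 1.5 for 10430303, 2.20 for 10430304, 2.30 for 10430305, 2.39 for 10430306 and 1.32 for 10430310, all without overlap, and 0.43 for 10430307 and 1.20 for 10430309, which overlapped. Probe set 10430304 was under the 5th percentile on 8 arrays, 10430309 on 7, and 10430305 and 10430306 on 2 WT arrays each. The sizes for these 4 are therefore not exact. Every probe set in the deposited values reaches 6.14 on some array, and 10430304 did so only in KO (6.56 and 7.12). Its presence thus rests on the group where it is high, and its lack of overlap is no support for a difference. SNP 1 was the highest array of all for 10430305 (9.0) and 10430306 (8.40), although SNP 2 and SNP 3 were at 5.63 and 6.15 for the first of these.

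**Figure D2:**
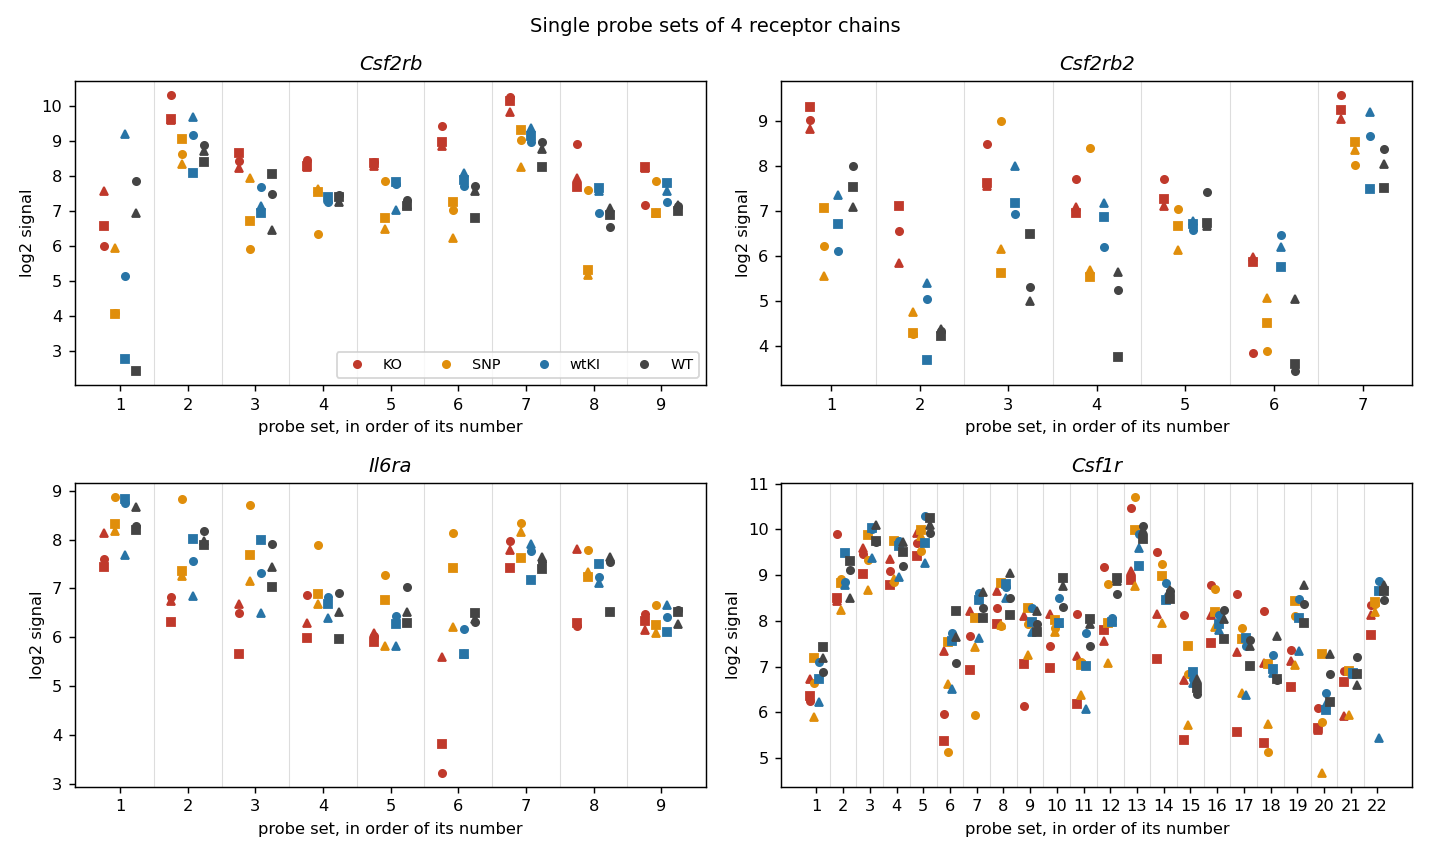
Log2 signal (y axis) of each probe set of Csf2rb, Csf2rb2, Il6ra and Csf1r, in order of its number (x axis), with a point for each array coloured by genotype and circles, squares and triangles for replicates 1, 2 and 3. In all 9 Csf2rb and all 7 Csf2rb2 probe sets the KO mean is above the WT mean, by 0.79 to 1.73 and by 0.43 to 2.39.

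The variant against the common human form asks what the variant alters. The 7 receptor chains were tested here within the fit over all genes. That fit takes a common spread per gene from the arrays of all groups. The standard errors are therefore those of KO minus WT, 0.17 for Csf2rb and 0.25 for Csf2rb2. A choice of genes by small KO minus WT p-values favours a small spread. The p-values and intervals given here may therefore be too small and too narrow, and are not free of that choice. The SNP minus wtKI difference of Csf2rb was -0.58 ± 0.17 (95% interval -0.95 to -0.21), a 1.5-fold lower signal in SNP without overlap. That of Csf2rb2 was -0.72 ± 0.25 (-1.26 to -0.17), 1.64-fold lower and also without overlap. The unadjusted limma p was 0.00533 for Csf2rb and 0.0147 for Csf2rb2, and the Benjamini-Hochberg adjusted p was 0.551 for both, so neither passed. None of the 7 receptor chains passed the adjusted threshold of 0.05, and no gene did (0%). At an unadjusted p under 0.05 there were 2 of the 7, against 8.88% of all genes, and the groups did not overlap for the same 2, against 14.6% of all genes. All 9 probe sets of Csf2rb and all 7 of Csf2rb2 were lower in SNP, with medians of -0.40 and -0.26. One of each did not overlap, 10425072 and 10430309 (-1.65). Probe set 10430309 was under the 5th percentile on 7 arrays. It reached 6.14, as every deposited probe set does on some array, only in wtKI. Its presence thus rests on the group where it is high, and its lack of overlap is no support for a difference. The SNP minus wtKI difference was smaller when each gene was read by its brightest probe set, at -0.29 for Csf2rb and -0.14 for Csf2rb2. That of Csf2rb2 was -0.46 without wtKI 3.

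Against WT, the common form (wtKI minus WT) gave 0.33 ± 0.17 for Csf2rb (-0.04 to 0.70) and 0.66 ± 0.25 for Csf2rb2 (0.11 to 1.21), with a limma adjusted p of 1 for both. Csf2rb2 was the only 1 of the 7 with an unadjusted p under 0.05 (0.0223), against 3.06% of all genes, and the only one without overlap, against 12.6% of all genes, while no receptor chain and no gene (0%) passed the adjusted threshold. Without wtKI 3, which had the highest Csf2rb2 of its group, the Csf2rb2 difference was 0.40. The variant minus WT gave -0.26 ± 0.17 for Csf2rb (adjusted p = 0.431) and -0.06 ± 0.25 for Csf2rb2 (0.915). In that comparison 0 of the 7 passed the adjusted threshold (0% of all genes), 0 reached an unadjusted p under 0.05 (15.9% of all genes) and 0 were without overlap (25.8% of all genes). The comparisons share arrays: SNP minus wtKI and wtKI minus WT both use the wtKI arrays, and KO minus WT, wtKI minus WT and SNP minus WT all use the WT arrays. Since the WT arrays entered the choice of these genes, the wtKI minus WT and SNP minus WT values are not independent of that choice. The SNP minus wtKI difference uses no KO or WT array, but its standard error does.

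Sex and array were not balanced over these groups. wtKI 1, the wtKI array with high Y-linked genes, had Csf2rb at 7.32 and Csf2rb2 at 6.74, against 6.81 to 7.10 and 6.16 to 6.32 in SNP. That is 1 array, which cannot tell sex and genotype apart. With sex as a term, SNP minus wtKI was -0.48 ± 0.21 for Csf2rb and -0.57 ± 0.31 for Csf2rb2 (limma adjusted p = 0.947 for both), and wtKI minus WT was 0.27 ± 0.19 and 0.59 ± 0.27.

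**Figure D3:**
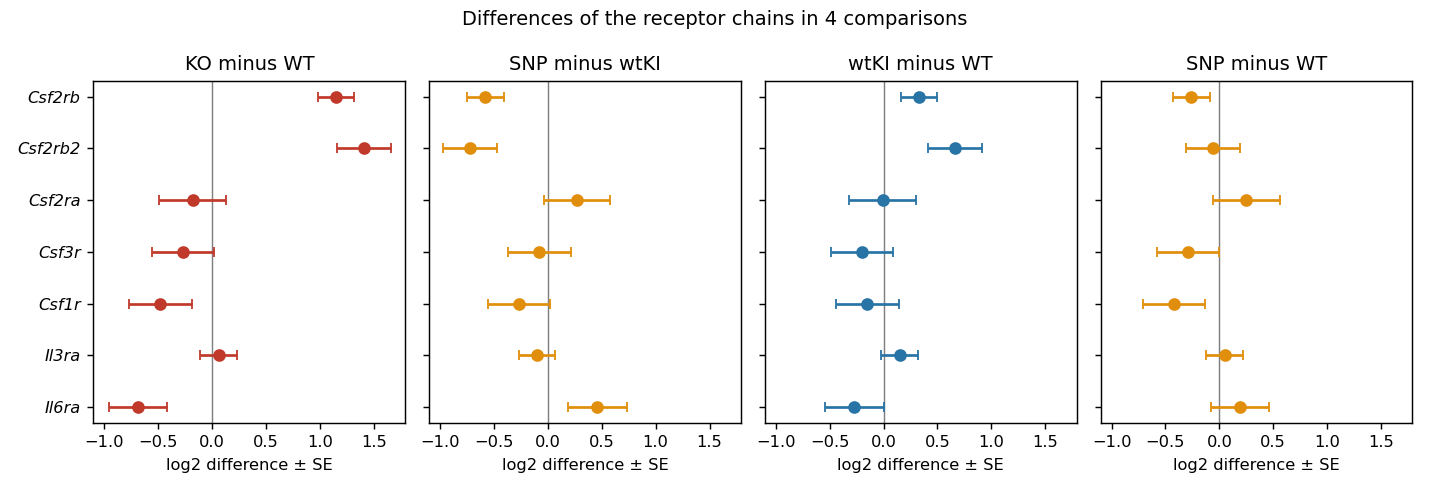
Log2 difference (x axis) of each receptor chain in the 4 comparisons, a panel each, with points for the fitted difference and bars for its standard error, 3 arrays per group. Csf2rb and Csf2rb2 lie at 1.15 and 1.41 in KO minus WT and at -0.58 and -0.72 in SNP minus wtKI, and most bars of the other 5 genes cross or come near 0.

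Mast cells and basophils carry IL-3 receptors, and their marker genes were high on the same KO arrays as the beta chains. Fcer1a, the ligand-binding chain of the IgE receptor, was at 8.07, 7.88 and 8.19 in KO, 6.18, 3.16 and 5.48 in SNP, 4.37, 5.43 and 6.21 in wtKI and 3.26, 5.82 and 4.89 in WT. All KO arrays were above all others, and the KO minus WT difference was 3.39 ± 0.79 (limma adjusted p = 0.412). SNP 2, wtKI 1, wtKI 2, WT 1 and WT 3 lay under the 5th percentile of their own array, so that size is not exact. The 10 measured of 12 listed mast cell and basophil markers averaged 0.84, 0.76 and 1.01 above the WT mean in KO, 0.10, -0.23 and 0.27 in SNP, 0.21, 0.18 and 0.84 in wtKI and -0.27, 0.46 and -0.19 in WT. In KO minus WT 9 of the 10 were higher, with a median of 0.68, against -0.02 over all genes. wtKI 3, the wtKI array with the highest Csf2rb (7.73) and Csf2rb2 (7.50), was also the one with the highest mast cell and basophil mean. WT 2 had the highest marker mean of WT (0.46), but the lowest Csf2rb (7.02) and Csf2rb2 (6.24) of WT. In SNP minus wtKI 8 of the 10 were lower, with a median of -0.33. The pattern was not particular to this list. All 4 measured of 7 listed eosinophil markers were also higher in KO minus WT, with a median of 0.98, none without overlap. They averaged 0.13 to 1.65 from the WT mean in KO, 0.31 to 1.35 in SNP, -0.68 to 1.63 in wtKI and -0.68 to 0.37 in WT. Kit is also in the GMP list and Gata2 in the transcription factor list. No listed marker was under the array's 5th percentile on all arrays, and the part of these cells in the beta chain values was not tested.

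**Figure D4:**
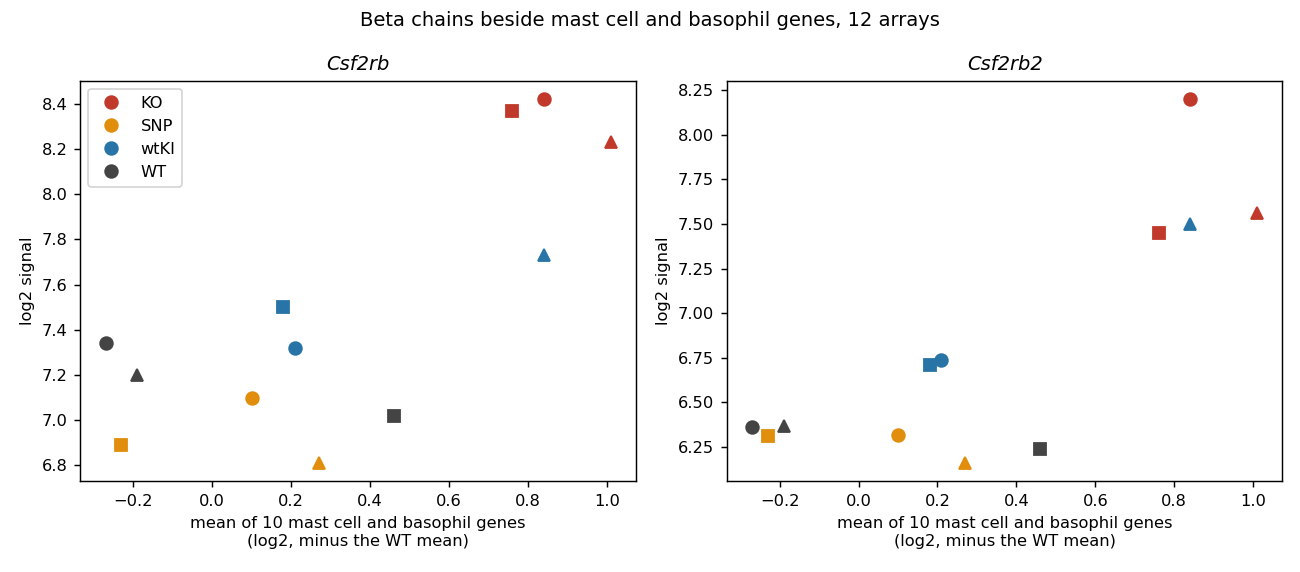
Log2 signal of Csf2rb and Csf2rb2 (y axes) against the mean of 10 mast cell and basophil marker genes minus its WT mean (x axis), for 12 arrays coloured by genotype, with circles, squares and triangles for replicates 1, 2 and 3. KO arrays have marker means of 0.76 to 1.01 and the highest Csf2rb, and wtKI 3 (0.84) is the only other array beyond 0.5. WT 2 (0.46) has the lowest Csf2rb and Csf2rb2 of WT.

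The genes whose values followed Csf2rb most closely over the 12 arrays, among 14178 compared, were Csf2rb2 (r = 0.939), Grb10 (0.925), which encodes an adaptor that binds receptor tyrosine kinases, and Zdhhc2 (0.916). Over the 10 arrays without KO 1 and SNP 1 they were Ifitm1 (0.956), Tmem242 (0.952) and Gja1 (0.946). The arrays of a genotype share their level, so these values are descriptions.

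For the alpha chains of the GM-CSF and IL-3 receptors the gene values of KO and WT overlapped. Csf2ra was at 7.78, 7.80 and 7.52 in KO, 9.02, 7.77 and 7.60 in SNP, 7.86, 7.90 and 7.84 in wtKI and 7.96, 7.92 and 7.75 in WT. SNP 1 was far above the rest, which lay between 7.52 and 7.96. The KO minus WT difference was -0.18 ± 0.31, with 1 of the 3 probe sets higher and 2 lower. The brightest of them, 10468894, was at 8.26, 8.46 and 8.18 in KO, against 8.62, 8.95 and 8.73 in WT, a difference of -0.47 without overlap. The order of means was SNP, WT, wtKI and KO, in which only wtKI and KO did not overlap. SNP minus wtKI was 0.27 ± 0.31 (-0.40 to 0.94; limma adjusted p = 0.735) with all arrays and -0.18 without KO 1 and SNP 1. wtKI minus WT was -0.01 ± 0.31 and SNP minus WT 0.25 ± 0.31 (adjusted p = 1 and 0.659), or -0.19 in SNP minus WT without KO 1 and SNP 1.

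Il3ra was at 6.72, 6.74 and 6.97 in KO, 7.01, 6.66 and 6.72 in SNP, 6.91, 6.78 and 7.0 in wtKI and 6.77, 6.51 and 6.95 in WT. All 4 groups overlapped, and no neighbours in the order of means (wtKI, KO, SNP, WT) were apart. KO minus WT was 0.06 ± 0.17, with 4 probe sets higher and 4 lower. The brightest probe set, 10412770, was at 11.71, 10.99 and 10.87 in KO, 11.40, 11.31 and 11.36 in SNP, 11.08, 10.84 and 11.19 in wtKI and 10.08, 10.29 and 10.88 in WT. With it alone, KO minus WT was 0.77, SNP minus wtKI 0.32, wtKI minus WT 0.62 and SNP minus WT 0.94, the SNP arrays being above all wtKI and all WT arrays. SNP minus wtKI was -0.10 ± 0.17 (-0.48 to 0.28; limma adjusted p = 0.827), wtKI minus WT was 0.15 ± 0.17 and SNP minus WT was 0.05 ± 0.17 (adjusted p = 1 and 0.893). Without KO 1 and SNP 1, KO minus WT was 0.11, SNP minus wtKI -0.21 and SNP minus WT -0.055.

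Il6ra, the IL-6 binding chain, was at 6.6, 6.42 and 6.97 in KO, 8.17, 7.29 and 7.16 in SNP, 7.31, 7.16 and 6.76 in wtKI and 7.44, 7.18 and 7.44 in WT. KO was below WT on every array, and SNP 1 was the highest. KO minus WT was -0.69 ± 0.27, a 1.61-fold lower signal in KO, and -0.65 ± 0.22 without KO 1 and SNP 1. Of the 9 probe sets 8 were lower in KO, 5 of them without overlap, beside 11.8% of all genes. The 9 differences had a median of -0.61 and a range of -2.19 to 0.19. The lowest of these, for 10499661, is not exact, since all 3 KO values were under the 5th percentile of their array. The order of means was SNP (7.54 ± 0.55), WT (7.35 ± 0.15), wtKI (7.08 ± 0.28) and KO (6.66 ± 0.28, SD, n = 3 each), and no neighbours in it were apart. SNP minus wtKI was 0.46 ± 0.27 (-0.14 to 1.06; limma adjusted p = 0.568), or 0.15 without KO 1 and SNP 1. wtKI minus WT was -0.27 ± 0.27 and SNP minus WT 0.19 ± 0.27 (adjusted p = 1 and 0.717), or -0.13 in SNP minus WT without KO 1 and SNP 1.

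Il6ra ran opposite to the beta chains. Across 12 arrays its values correlated with those of Csf2rb at r = -0.72 and of Csf2rb2 at -0.74, and without KO 1 and SNP 1 at -0.75 and -0.78, as descriptions over arrays that share genotype. In KO minus WT as a whole, 5 of the 7 receptor chains did not overlap, 2 higher (Csf2rb, Csf2rb2) and 3 lower (Csf3r, Csf1r, Il6ra), beside 11.8% of all genes. Since that comparison was in view when the genes were chosen, nothing is read from the count.

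Csf3r, the G-CSF receptor, was at 7.12, 7.24 and 7.22 in KO, 8.01, 6.75 and 6.78 in SNP, 7.17, 7.42 and 7.21 in wtKI and 7.35, 7.60 and 7.45 in WT. KO was below WT on every array by a small margin, and SNP 1 stood above all other arrays. KO minus WT was -0.27 ± 0.29, with 10 of 13 probe sets lower and a range of -2.00 to 0.21. Of the 13, 2 were without overlap, beside 11.8% of all genes. The means ran WT, wtKI, KO and SNP, and none of the neighbours was apart. SNP minus WT was -0.29 ± 0.29 (-0.92 to 0.35; limma adjusted p = 0.596) with all arrays, and -0.70 ± 0.15 without KO 1 and SNP 1 (adjusted p = 0.15). SNP minus wtKI was -0.08 ± 0.29 (-0.72 to 0.55; adjusted p = 0.923) with all arrays and -0.50 ± 0.15 (0.519) over 10 arrays. SNP 1 also had the highest mature neutrophil markers (4.01 above the WT mean). Camp, an antimicrobial peptide of neutrophil granules, was at 11.55 there and at 6.44 and 7.0 on SNP 2 and SNP 3. It was at 4.83, 4.93 and 4.47 in KO, against 5.86 to 8.02 in WT. On KO 2 and KO 3 it was under the 5th percentile of the array (5.47 and 5.65). Of the 12 markers 9 were lower and 3 higher in KO minus WT. Mmp8 was among the higher, at 10.09, 10.14 and 10.29 in KO, against 6.51, 6.83 and 7.11 in WT. The part of mature neutrophils in the Csf3r value of SNP 1 was not tested. wtKI minus WT was -0.20 ± 0.29 (adjusted p = 1), with 12 of 13 probe sets lower and none apart.

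Csf1r was at 8.01, 7.29 and 8.06 in KO, 7.98, 8.28 and 7.28 in SNP, 8.41, 8.14 and 7.78 in wtKI and 8.22, 8.15 and 8.43 in WT. KO was below WT on every array, and KO 2 and SNP 3 were the lowest of all. KO minus WT was -0.48 ± 0.29, with 20 of 22 probe sets lower, 6 without overlap (11.8% of all genes), and a median of -0.48. It was -0.23 without KO 2 and -0.90 with array weights, so its size varied with the weight of single arrays. SNP minus WT was -0.42 ± 0.29 (-1.06 to 0.22; limma adjusted p = 0.449), with 19 of 22 probe sets lower. Of the 22, 4 were apart, beside 25.8% of all genes in that comparison, so nothing is read from that count. SNP minus wtKI was -0.27 ± 0.29 (-0.91 to 0.37; adjusted p = 0.728) and wtKI minus WT was -0.15 ± 0.29 (1). Means ran WT, wtKI, SNP and KO, with no neighbours apart. The 8 other measured monocyte and macrophage markers averaged -0.12, -0.56 and -0.45 from the WT mean in KO and 0.69, -0.20 and -0.48 in SNP, against 0.07, -0.18 and 0.11 in WT, and their part in the Csf1r values was not tested. Single probe sets of Csf1r scattered more, as the SD after the median of each over the arrays was removed, on KO 1 (0.86) and SNP 1 (0.83) than on the other arrays (0.21 to 0.66 log2 units).

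The genes closest to Csf1r over the 12 arrays were Nsa2 (r = 0.858), Eif3h (0.857) and Tpp1 (0.85), and over 10 arrays Lbh (0.953), Itpripl1 (0.923) and Prkar2b (0.918). For Csf3r they were Vmn2r-ps54 (0.916), Atg3 (0.911) and Ptp4a3 (0.903), and over 10 arrays Pdcl3 (0.944), rp9 (0.94) and Tecr (0.927). For Csf2ra they were Tepp (0.961), Vhl (0.96) and Zfp354c (0.96), and over 10 arrays Krt5 (0.976), Plpp4 (0.915) and Psme1 (0.905). No gene recurred for a receptor chain between the 12-array and 10-array sets, and SNP 1 was the extreme array for Csf2ra and Csf3r.

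The signalling genes below the receptors were listed by role, and 53 of 68 had a value. In KO minus WT 25 were higher and 28 lower, with a median of -0.05 against -0.02 over all genes. None passed the adjusted threshold (0% of all genes), and 4 had an unadjusted limma p under 0.05, 2 in each direction, against 4.72% of all genes. In SNP minus wtKI 30 were higher and 23 lower, with a median of 0.07, none passed and 3 had an unadjusted p under 0.05, against 8.88% of all genes. In wtKI minus WT 27 were higher and 26 lower, none passed and none had an unadjusted p under 0.05, against 3.06% of all genes. In SNP minus WT 25 were higher and 28 lower, none passed and 6 had an unadjusted p under 0.05, against 15.9% of all genes.

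Of the ligands and partner chains only Csf1, Il5ra and Il6st of 9 had a value. Il6st, the signalling partner of Il6ra, differed by 0.35 ± 0.26 in KO minus WT (limma adjusted p = 1). Il5ra, which pairs with Csf2rb, differed by 0.93 ± 0.32 in SNP minus wtKI (adjusted p = 0.551), with overlap, and by 0.61 without KO 1 and SNP 1. Csf1, the ligand of Csf1r, differed by -0.88 ± 0.46 in SNP minus wtKI. The Janus kinases and STAT factors, with 9 of 10 measured, had a median of -0.05 in KO minus WT, none without overlap. Jak2 differed by -0.07 ± 0.18, Stat5a by 0.05 ± 0.15 and Stat5b by -0.33 ± 0.23. Of the adaptors and kinases, 14 of 17 were measured, with a median of -0.04 in KO minus WT. Grb2, which links receptors to RAS, differed by -0.79 ± 0.26 in SNP minus WT (adjusted p = 0.263), without overlap, and by -0.45 ± 0.26 in KO minus WT. Akt1, the survival kinase, differed by -0.71 ± 0.23 in SNP minus WT (0.263).

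Cytokine-induced targets held the smallest p of the signalling genes. Pim1, a survival kinase that STAT5 induces, was at 7.68, 7.45 and 7.41 in KO, 7.32, 6.73 and 6.41 in SNP, 6.62, 6.36 and 6.72 in wtKI and 6.55, 6.30 and 6.22 in WT. All KO arrays were above all others. The KO minus WT difference was 1.16 ± 0.23 (limma adjusted p = 0.254), a fold of 2.23, which did not pass. Pim2, its relative, was at 6.36, 6.87 and 6.86 in KO, against 6.24, 6.06 and 6.25 in WT, a difference of 0.51 ± 0.18 (adjusted p = 0.825) without overlap. Ccnd2, a cyclin that cytokines induce, was at 7.91, 8.71 and 8.96 in KO, 8.06, 9.12 and 8.84 in SNP, 8.93, 9.18 and 9.10 in wtKI and 9.75, 9.45 and 9.59 in WT, a KO minus WT difference of -1.07 ± 0.31 (adjusted p = 0.666). The WT arrays were above all others, and KO minus WT was -0.76 without KO 1 and SNP 1. In SNP minus WT Ccnd2 differed by -0.92 ± 0.31 (adjusted p = 0.263), and by -0.61 without KO 1 and SNP 1. Over the 13 measured targets of 15, 9 were higher and 4 lower in KO, with a median of 0.16.

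Inhibitors of cytokine signalling, with 14 of 18 measured, had a median of -0.19 in KO minus WT, 4 higher and 10 lower. Pias1, an inhibitor of STAT factors, differed by -0.63 ± 0.22 (limma adjusted p = 0.844) without overlap, and Socs4 by 0.55 ± 0.31 without overlap, or 0.32 without KO 1 and SNP 1. Socs6 differed by -0.76 ± 0.32 in SNP minus wtKI (adjusted p = 0.551), without overlap. With array weights 5 signalling genes passed in KO minus WT, Pim1 (1.11, adjusted p = 0.00214), Pim2 (0.65, 0.0094), Ccnd2 (-0.90, 0.0094), Gab1 (-0.98, 0.0231) and Pias1 (-0.61, 0.04), but 507 of all genes passed as well under that setting.

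**Figure D5:**
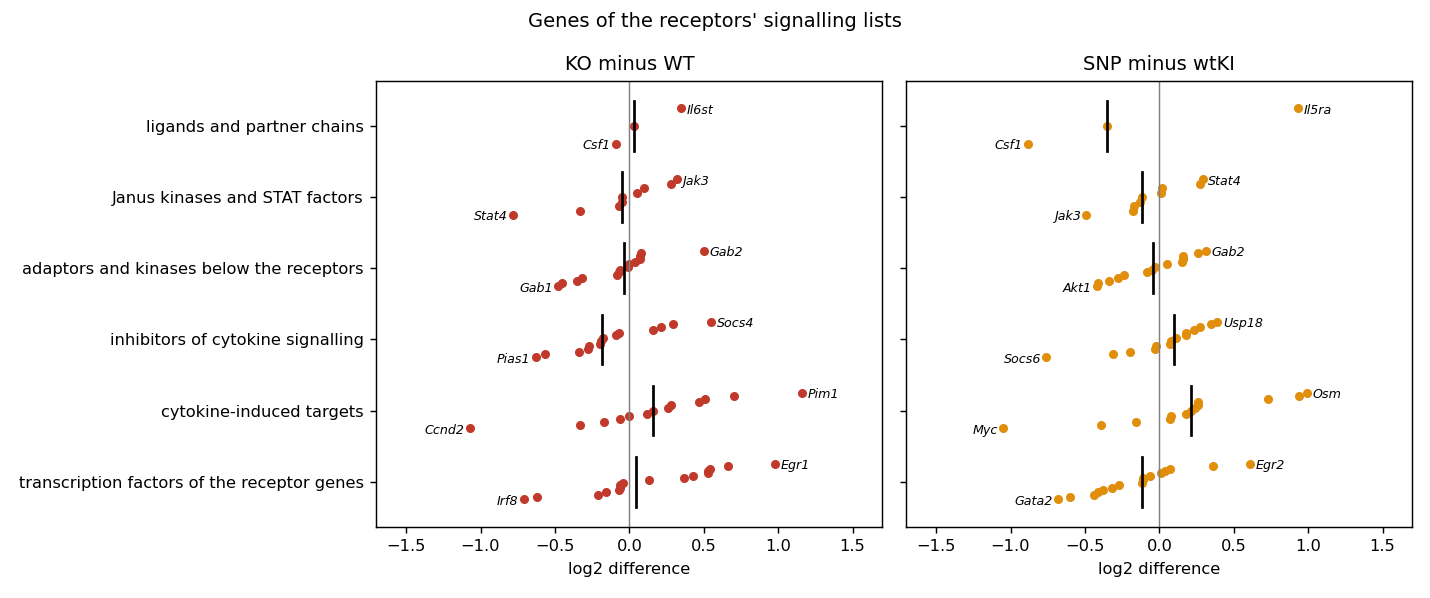
Log2 difference (x axis) of each measured gene of the signalling lists and of the transcription factors known at the receptor genes, in KO minus WT and in SNP minus wtKI, with a point per gene and a bar at the list median. The medians in KO minus WT lie between -0.19 and 0.16, Pim1 (1.16) and Ccnd2 (-1.07) are the extremes in that panel, and none of the points passed the adjusted threshold.

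Of the transcription factors that are known at these receptor genes, 16 of 17 were measured. Spi1 (PU.1) differed by -0.16 ± 0.31, Cebpa by -0.21 ± 0.28 and Runx1 by 0.13 ± 0.27 in KO minus WT, the last 2 being 0 and 0.08 without KO 1 and SNP 1. Irf8, needed for monocyte fate, was at 7.56, 7.90 and 8.19 in KO, against 8.74, 8.43 and 8.60 in WT, a difference of -0.71 ± 0.25 (limma adjusted p = 0.886) without overlap. Gata2, a factor of mast cells and early progenitors, was at 6.99, 6.99 and 6.98 in KO, 6.27, 6.28 and 6.58 in SNP, 6.66, 7.03 and 7.48 in wtKI and 6.61, 6.57 and 6.19 in WT. KO was above WT, SNP was below wtKI and wtKI was above WT without overlap, by 0.53 ± 0.22, -0.68 ± 0.22 and 0.60 ± 0.22 (adjusted p = 0.999, 0.551 and 1). The SNP minus wtKI and wtKI minus WT values share the wtKI arrays.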

How the data were processed

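GMP RNA was amplified with a NuGEN kit for small inputs and hybridised to 12 arrays, per the labels' protocols. The deposited log2 signals are RMA values, according to the submitters' processing notes, which name no version. Of 105661 probe sets, 98975 carry 1 gene symbol, 1703 several and 4983 none. Only those with 1 symbol were named, and 1776 symbols were updated through a RefSeq table (GRCm38.p6) that held 14146 of the 14179 genes. Every probe set reaches 6.14 on some array, so genes low on all arrays are missing. Probe sets of a gene were summarised by median polish, and levels are not compared between genes. Differences were fitted with limma 3.58.1 in R 4.3.3 (lmFit, eBayes, 12 arrays, 4 groups, no covariates), with Benjamini-Hochberg adjustment over 14179 genes and a threshold of 0.05. With 3 arrays a group, their number limits the precision.

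The receptor chains and gene lists were chosen with earlier results of these data known. Named were the 7 chains, each probe set of Csf2rb and Csf2rb2, up to 3 genes with the smallest p per signalling list and comparison, the 3 genes most alike to 4 of the chains, and Fcer1a, Camp and Mpo. Cd79a had no value, and Hbb-b1 is given only in its list. Jak2, Mmp8, the transcription factors, the neighbouring genes, Gfi1 and the genes in the closing section were chosen after their values were seen.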

Additional observations from a re-analysis of the deposited data

How the results depend on the processing

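Under 23 alternative settings, no receptor chain passed the adjusted threshold in SNP minus wtKI, wtKI minus WT or SNP minus WT. Csf2rb and Csf2rb2 kept their direction in KO minus WT (1.07 to 1.41 and 1.15 to 1.62), SNP minus wtKI (-0.68 to -0.29 and -0.86 to -0.14) and wtKI minus WT (0.22 to 0.48 and 0.40 to 0.80) in all 23. Il6ra and Csf1r were lower in KO in all 23 (-0.89 to -0.57 and -0.90 to -0.23), while Csf3r turned in 1 (0.03) and Il3ra in 3. Of 644 values, 37 had the opposite sign to the reported one, and the cause was not tested. With the brightest probe set, SNP minus wtKI was -0.10 for Csf2ra, 0.029 for Csf1r and 0.32 for Il3ra, wtKI minus WT was 0.041 for Il6ra, and SNP minus WT was 0.20 for Csf2rb, 0.33 for Csf2rb2 and -0.30 for Csf2ra. With the plain mean, Csf3r was 0.037 in SNP minus wtKI and Csf2rb2 0.33 in SNP minus WT, and with repeated quantile normalization Csf2ra was 0.021 in wtKI minus WT. Array weights gave -0.094 for Csf2ra in SNP minus wtKI, 0.002 in wtKI minus WT and -0.092 in SNP minus WT, and -0.07 for Il3ra and -0.10 for Il6ra in SNP minus WT. Over 10 arrays Csf2ra was -0.18 in SNP minus wtKI and -0.19 in SNP minus WT, Il3ra -0.055 and Il6ra -0.13 in SNP minus WT. With sex as a term Csf2ra was 0.016 in wtKI minus WT and Csf2rb2 0.015 in SNP minus WT. Leaving out 1 array at a time, SNP minus wtKI ranged from -0.18 to 0.53 for Csf2ra, -0.50 to 0.13 for Csf3r and -0.484 to 0.016 for Csf1r, wtKI minus WT from -0.077 to 0.027 for Csf2ra and -0.31 to 0.01 for Csf1r, and SNP minus WT from -0.19 to 0.52 for Csf2ra, -0.066 to 0.153 for Il3ra and -0.13 to 0.38 for Il6ra.

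Genes called at the adjusted threshold in KO minus WT numbered 0 in the reported fit, 3 with the plain mean (Cdc42bpb, Ndrg2, Tulp4), 1 with the 2 groups alone (Mmp8), 4 over 10 arrays (Lrig3, Mmp8, Ndrg2, Tulp4), 507 with array weights, and 0 to 5 without 1 array. Signalling genes called there numbered 5 with array weights. In SNP minus wtKI the count was 1 with the 2 groups alone (Ifi202b) and 0 to 2 without 1 array, in wtKI minus WT 4 with array weights and 0 to 1 without 1 array, and in SNP minus WT 1 without the dimmest genes (Iigp1), 4 with array weights and 0 to 2 without 1 array. Arrays share only a number: in SNP minus wtKI the same-numbered pairs correlated at 0.017, 0.113 and 0.053, not all over 0.1, and 5 of 6 arrays correlated best with their own number, against 2, 0 and 0 of 6 in KO minus WT, wtKI minus WT and SNP minus WT. With the replicate block 0 genes were called in each comparison, and Csf2rb in SNP minus wtKI was -0.58 ± 0.18 (adjusted p = 0.479).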

Other observations

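Receptors for other cytokines and growth factors were looked at after their values were seen, with 21 of 24 measured. In KO minus WT 12 were higher and 9 lower, with a median of 0.05, none passed the adjusted threshold and 10 did not overlap (6 higher, 4 lower), against 11.8% of all genes. Il2rg, the common gamma chain of the IL-2 receptor family, differed by 1.39 ± 0.49 (limma adjusted p = 0.889). In SNP minus wtKI 2 did not overlap, against 14.6% of all genes. Flt3, a receptor of early progenitors, was at 6.39, 7.40 and 7.58 in SNP, against 7.65, 8.25 and 7.67 in wtKI, a difference of -0.73 ± 0.32 (limma adjusted p = 0.551). Il7r, a receptor of lymphoid progenitors, was at 10.30, 5.73 and 6.36 in SNP, against 5.32, 5.30 and 4.05 in wtKI, a difference of 2.58 ± 0.92 (limma adjusted p = 0.551). SNP 1 was the lowest array for Flt3 and the highest for Il7r in these groups, and without KO 1 and SNP 1 the differences were -0.37 and 1.16. In wtKI minus WT Flt3 differed by 0.65 ± 0.32 without overlap (adjusted p = 1).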
